A study of Homo sapiens with 9 samples.

Results

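The NSL complex is one of the protein assemblies that carry the histone acetyltransferase MOF (gene KAT8), and the genes described here are those of its 8 other subunits: KANSL1, KANSL2, KANSL3, PHF20, MCRS1, WDR5, HCFC1 and OGT. Their probe sets were taken by name, as every probe set whose single gene symbol in the platform's annotation was one of the 8, which gave 24 of 54675 probe sets, for 8 of the 19775 genes named by such probe sets. The rule itself uses no measured value. In this design a probe set is a group of short oligonucleotides that together report 1 transcript or part of it. Of the 24, 19 were bright enough to be tested, and each of the 8 genes had at least 1 tested probe set.

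MOF acetylates histones and works in at least the MSL and NSL complexes. In MSL it is directed mainly to lysine 16 of histone H4. In NSL it sits at the promoters of many housekeeping genes, where KANSL1 is the scaffold that holds MOF and, with KANSL2, contacts WDR5. PHF20 reads methylated lysines, HCFC1 encodes the host cell factor HCF-1, and OGT encodes the O-GlcNAc transferase, which puts single N-acetylglucosamine sugars on nuclear and cytoplasmic proteins and also cleaves HCF-1. Several subunits serve other machines: WDR5 the SET1 and MLL histone methyltransferases, MCRS1 the INO80 remodeller, HCF-1 and OGT many transcription factors.

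HEK293 is a human embryonic kidney cell line. The 3 groups, with 3 arrays each, were HEK293 cells in which MOF was knocked down with siRNA, HEK293 cells transfected with a plasmid that encodes MOF for its overexpression, and untreated wild type HEK293 cells. The labels name no promoter or clone and are silent on whether replicates were grown apart, and p-values here reflect only how far the 9 samples scatter, which can be a technical scatter. A control treated with an unrelated double-stranded RNA is mentioned in the design text but is not among the 9 samples, so a difference from wild type includes any effect of transfecting the cells. In cultured cells measured in bulk, fewer cells with a transcript and less of it per cell cannot be told apart.

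KAT8, the targeted gene, was lowest in knockdown cells at both of its tested probe sets, and was higher in overexpressing cells than in wild type at 1 of them. Its brighter probe set (221820_s_at) read 432, 706 and 517 in knockdown cells, 4594, 4727 and 4763 in overexpressing cells, and 2910, 3797 and 3249 in wild type cells, in MAS5 signal, a linear brightness scaled to the same trimmed mean of 1500 on every array. The 3 groups did not overlap. KAT8 fell by 2.61 (SE 0.17) on the log2 scale in knockdown cells relative to wild type, with a limma adjusted p of 4.72e-05. Its rise of 0.51 (SE 0.17) in overexpressing cells did not pass, with a limma adjusted p of 0.259. The dimmer probe set (214885_at) read 159.5, 119 and 166 in knockdown cells, 657, 428 and 381 in overexpressing cells, and 428, 499 and 401 in wild type cells. There KAT8 fell by 1.58 (SE 0.26) in knockdown cells (limma adjusted p = 0.00296), while overexpression overlapped wild type, with a difference of 0.11 (limma adjusted p = 0.910). The plasmid's transcript would be seen by a probe set only as far as it holds the probed sequence, and the files do not give that.

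The arrays differed in 1 technical way that crosses the groups. The spiked-in poly-A controls were 2.22-fold brighter on the arrays of replicates 2 and 3 than on those of replicate 1, without overlap, and the hybridization controls 1.19-fold. Arrays of the same replicate number deviated together from their group means for knockdown against wild type (correlations 0.14 to 0.36). The same held for knockdown against overexpression (0.11 to 0.35). Wild type replicate 3, however, correlated more with knockdown replicate 2 (0.18) than with knockdown replicate 3 (0.14), so numbers 2 and 3 are not clearly pairs there. In these 2 comparisons the value with replicate number as a block is given below for each NSL probe set whose call it changed, and for the counts it moved. All 8 genes listed as markers of HEK293 cells, such as VIM and KRT18, were brighter than the median probe set. Of 17 markers of blood, fibroblasts, endothelium and liver, 4 were (HBB, COL1A1, COL3A1 and PECAM1), none was at 0, and their summed signal was 2731 to 3464 in knockdown cells, 3839 to 4837 in overexpressing cells and 3596 to 4556 in wild type cells. COL1A1 was the brightest of the 17, with a mean signal of 2113. The part that the shift in the sum plays in the results below was not tested.

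Across the complex, knockdown of MOF was accompanied by more OGT and KANSL2 signal and by less signal at 1 of the 5 probe sets of PHF20. KANSL2 was nearly as high in overexpressing cells (log2 0.26 over wild type, against 0.29 in knockdown cells). Its call held in 1 of the 6 fits that left out an array. Of the 19 tested probe sets, 5 passed the test against wild type (limma adjusted p under 0.05), 4 higher and 1 lower. That is 26.3% of the 19 probe sets, against 15.7% of all 27307 probe sets tested. The background was 6.82% for higher calls and 8.89% for lower calls, and 3 of the 4 higher calls came from the single gene OGT. With replicate number as a block, 8 of the 19 passed, and 28.0% of all tested probe sets. The 3 knockdown arrays lay wholly above or below the 3 wild type arrays for 10 of the 19, 8 of them higher, where 35.2% of all tested probe sets did so. The higher ones belonged only to OGT, KANSL1 and KANSL2, and included all 5 tested OGT probe sets. The median log2 fold change was 0.22 over the 19, of which OGT supplied 5, and 0.01 over all tested probe sets. By the brightest tested probe set of each gene, 2 of the 8 genes passed, both higher.

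Overexpression gave no call among the 19 against wild type in limma, where 0.476% of all tested probe sets passed. At an unadjusted p under 0.05 there were 4, against 12.3% of all tested probe sets, and 3 of the 19 did not overlap between the groups, against 17.6% of all tested probe sets. The median log2 fold change was 0.12 over the 19 and 0.01 over all tested probe sets. Between knockdown and overexpressing cells, 3 of the 19 passed, 1 higher and 2 lower in knockdown cells. That is 15.8% of them, near the background of 14.5% of all tested probe sets (5.75% higher, 8.76% lower). With replicate number as a block the count was 5, and 26.9% of all tested probe sets passed. Groups did not overlap for 7 of the 19, against 33.7% of all, and the 5 higher ones were all of OGT. By the brightest tested probe set of each gene, 0 of the 8 genes passed. The comparisons share arrays, knockdown and overexpression being set against the same 3 wild type arrays, and their values are therefore given side by side.

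**Figure D1:**
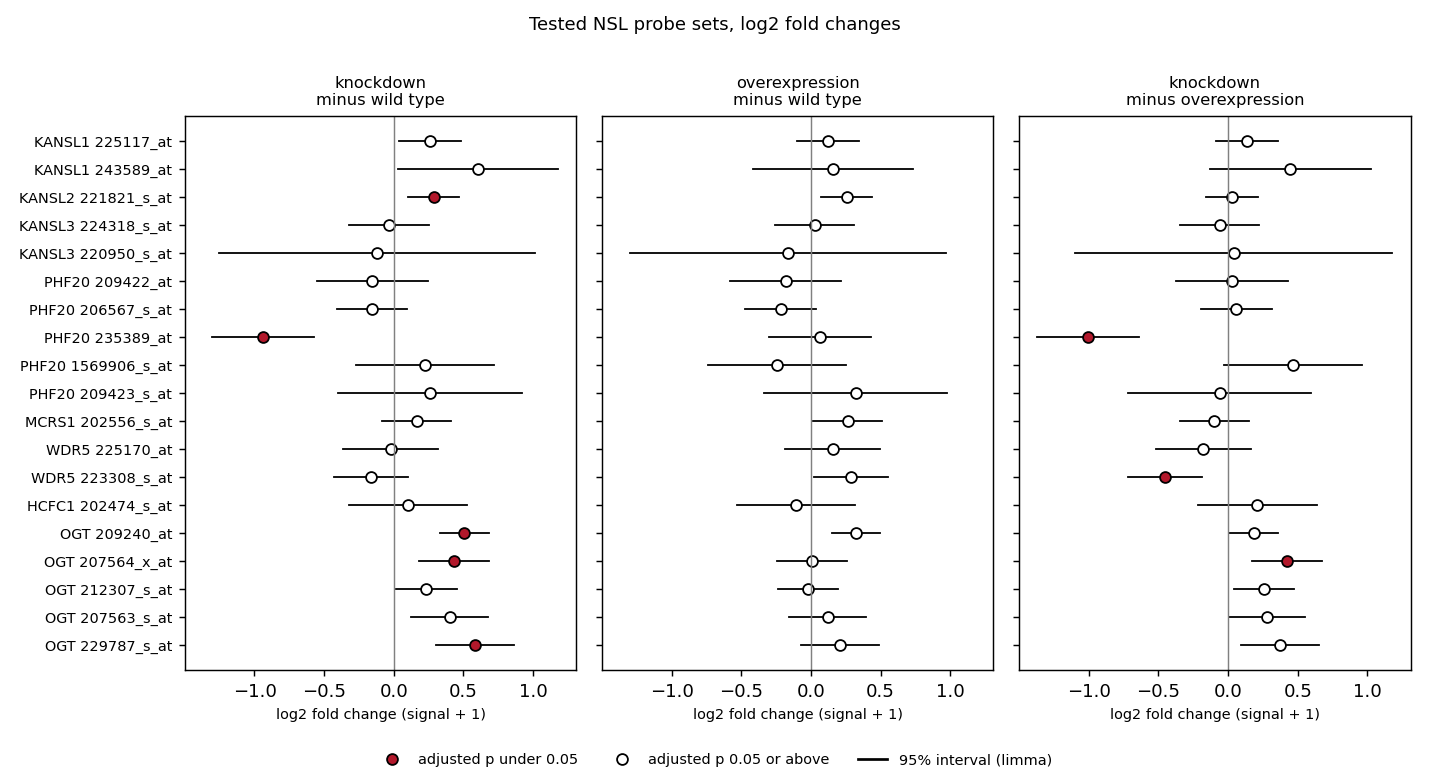
Log2 fold changes on the log2(signal + 1) scale of the 19 tested NSL probe sets for knockdown minus wild type, overexpression minus wild type and knockdown minus overexpression. Points are limma estimates and bars their 95% intervals, and filled points passed at an adjusted p under 0.05: 5 in the first panel, 0 in the second and 3 in the last.

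OGT, the enzyme among these subunits, was called higher after knockdown at 3 of its 5 tested probe sets. OGT has a single promoter window in the RefSeq table, read from GRCh38.p14 on the plus strand at chrX:71532854-71533153, covering 250 bases before the annotated start and 50 after it. It is shown because OGT is the gene whose probe sets moved together. The capitals mark matches, on either strand, to motifs searched in all windows. The match to NRF1 (GCATGCGC) begins 189 bases before the start. That to YY1 (ATGGCGGC, here on the opposite strand) begins 6 bases before the start and runs across it.
OGT: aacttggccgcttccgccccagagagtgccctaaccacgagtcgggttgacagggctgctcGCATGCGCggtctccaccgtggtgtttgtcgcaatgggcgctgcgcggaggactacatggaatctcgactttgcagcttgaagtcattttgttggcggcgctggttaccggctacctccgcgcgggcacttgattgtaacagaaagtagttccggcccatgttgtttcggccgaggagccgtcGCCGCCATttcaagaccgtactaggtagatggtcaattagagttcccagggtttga

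The NRF1 letters were in 3.05% of all 35116 promoter windows of the table and the YY1 letters in 2.996%. Of the 13 windows of 7 members, only that of OGT held either. The motifs were picked after the promoters had been seen, and a match describes the letters and no binding. HCFC1 has no window in the table.

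OGT's brightest probe set (209240_at) read 20373, 19457 and 19466 in knockdown cells, 16992, 17738 and 17492 in overexpressing cells, and 14835, 12451 and 14564 in wild type cells. No array of any group overlapped another group, with knockdown highest and wild type lowest. The knockdown signal was 1.42-fold that of wild type, a log2 fold change of 0.51 (SE 0.08, 95% interval 0.33 to 0.68, limma adjusted p = 0.00238), and this call held under every alternative run. It was 0.46 between the replicate 1 arrays and 0.53 over replicates 2 and 3. The overexpression signal was 1.25-fold that of wild type, which did not pass (0.32, SE 0.08, limma adjusted p = 0.125). Knockdown exceeded overexpression by 0.18, with a limma adjusted p of 0.150.

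The other tested OGT probe sets showed the same direction against wild type. Probe set 229787_s_at read 1432, 1458 and 1340 in knockdown cells, 1109, 1033 and 1121 in overexpressing cells, and 853, 922 and 1057 in wild type cells. All knockdown arrays lay above all others, while overexpression and wild type overlapped. Its knockdown signal was 1.498-fold that of wild type (log2 0.58, SE 0.13, limma adjusted p = 0.0119). This call also held under every alternative that tested the probe set, which the stricter brightness filter left out. Knockdown exceeded overexpression by 0.37, with a limma adjusted p of 0.0737, or 0.0471 with the block.

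Probe set 207564_x_at, whose suffix marks oligonucleotides that can also bind other transcripts, read 7030, 7946 and 7166 in knockdown cells, 4571, 6002 and 6055 in overexpressing cells, and 5295, 5676 and 5437 in wild type cells. Overexpression and wild type overlapped, and knockdown lay above both. Knockdown rose by 0.43 (SE 0.11) over wild type (limma adjusted p = 0.0277) and by 0.42 (SE 0.11) over overexpression (limma adjusted p = 0.0312). The call against wild type was lost on leaving out any wild type array or knockdown replicate 2 or 3, where the adjusted p reached 0.104, and without the trend (0.0583). That against overexpression was lost without overexpression replicate 1, or without knockdown replicate 2 or 3, where it reached 0.116, and also without the trend (0.0654) and with only the compared groups in the fit (0.0573).

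The remaining pair of tested OGT probe sets did not pass against wild type without the block. Probe set 207563_s_at read 2510, 2595 and 2946 in knockdown cells, 1973, 2261 and 2399 in overexpressing cells, and 2220, 2100 and 1786 in wild type cells. Its log2 difference from wild type was 0.40 (SE 0.13) with a limma adjusted p of 0.0515, or 0.0225 with the block. Probe set 212307_s_at read 3682, 3736 and 3925 in knockdown cells, 2884, 3367 and 3258 in overexpressing cells, and 3008, 3260 and 3378 in wild type cells. Its difference of 0.23 (SE 0.10) had a limma adjusted p of 0.132, or 0.0402 with the block, and that from overexpression (0.26) an adjusted p of 0.107, or 0.0280 with the block. In all 5 tested OGT probe sets the 3 knockdown arrays were above the 3 wild type and the 3 overexpression arrays, and the folds over wild type ran from 1.18 to 1.498. The 5 are annotated to the same gene, so they are not independent of each other. A dim probe set, 220594_at, stayed between 78.7 and 270.0 over the 9 arrays and was not tested.

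**Figure D2:**
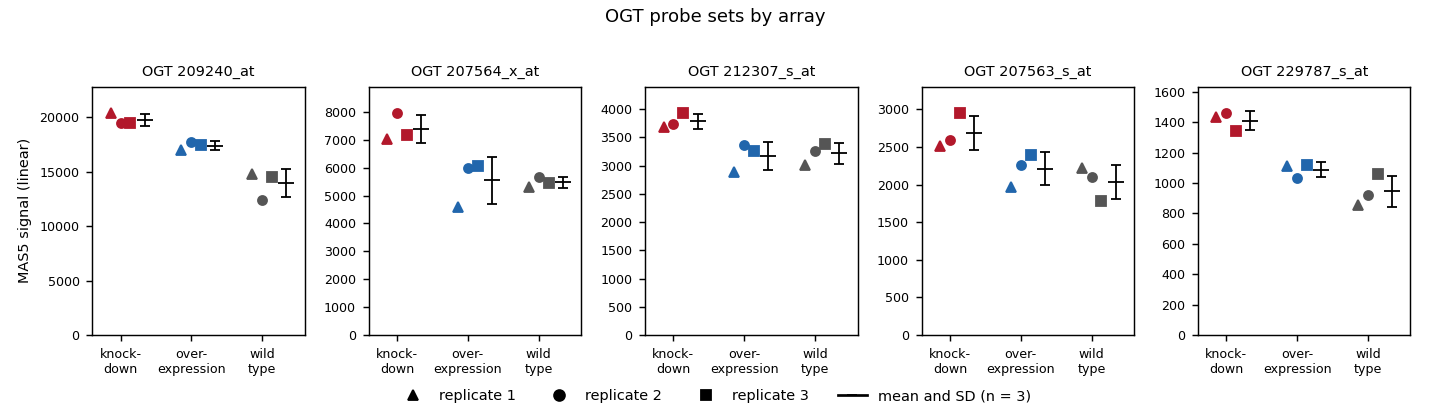
MAS5 signal (linear, axes from 0) of the 5 tested OGT probe sets in knockdown, overexpression and wild type cells, 1 symbol per array with the mean and SD of 3 arrays. The knockdown arrays lie above all other arrays in each panel, and at 209240_at the overexpression arrays also lie above those of wild type.

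The other enzymes of O-GlcNAc cycling and of the hexosamine pathway, which makes the UDP-GlcNAc that OGT uses, form a list of 8 genes. Of these, 5 were tested, while GFPT2, PGM3 and AMDHD2 had no tested probe set of a single symbol. The list was chosen with earlier results of these data known, so its counts describe these genes and are no test of the pathway. In it 1 probe set stands for a gene, while the background counts every tested probe set. Against wild type, knockdown raised 2 of the 5 and lowered 0, with a median log2 fold change of 0.22 against 0.01 over all probe sets, of which 6.82% were called higher and 8.89% lower. OGA, which removes O-GlcNAc, read 9564, 10317 and 8303 in knockdown cells, 6081, 6340 and 6274 in overexpressing cells, and 7364, 7202 and 7211 in wild type cells. The 3 groups did not overlap, with overexpression lowest. OGA rose by 0.37 (SE 0.09) in knockdown cells over wild type (limma adjusted p = 0.0202) and by 0.59 (SE 0.09) over overexpressing cells (limma adjusted p = 0.00228). The difference between overexpression and wild type, -0.22, did not pass (limma adjusted p = 0.35).

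GFPT1, which catalyses the rate-limiting entry into the pathway, read 5670, 4914 and 5443 in knockdown cells, 4128, 4144 and 4378 in overexpressing cells, and 4114, 3894 and 4089 in wild type cells. Knockdown lay above both other groups, by 0.40 (SE 0.09, limma adjusted p = 0.0124) over wild type and by 0.34 (SE 0.09, limma adjusted p = 0.0272) over overexpression. Leaving out wild type replicate 2 left 0 of the 5 genes called against wild type, since OGA then had an adjusted p of 0.0699 and GFPT1 of 0.0552. OGA's call against wild type was lost in 4 of the 6 cases of a left-out array (adjusted p up to 0.0881), and GFPT1's call against overexpression in 5 of 6 (adjusted p up to 0.09).

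Between knockdown and overexpressing cells 4 of the 5 rose and 0 fell, with a median of 0.41 against -0.01 over all tested probe sets, of which 5.75% were called higher and 8.76% lower. Besides OGA and GFPT1 these were GNPNAT1, which acetylates glucosamine 6-phosphate, and UAP1, which makes UDP-GlcNAc itself. GNPNAT1 read 10333, 10826 and 10133 in knockdown cells, 7815, 7597 and 8018 in overexpressing cells, and 9706, 8837 and 8436 in wild type cells. The groups did not overlap, and knockdown was 0.42 (SE 0.08) above overexpression (limma adjusted p = 0.00656). UAP1 read 12553, 13979 and 14793 in knockdown cells, 9913, 10807 and 10357 in overexpressing cells, and 10887, 13764 and 13067 in wild type cells. It was 0.41 (SE 0.10) above overexpression (limma adjusted p = 0.0208), while knockdown and wild type overlapped. UAP1's call was lost on leaving out an array in 4 of 6 cases (adjusted p up to 0.0841). NAGK, the kinase that salvages N-acetylglucosamine, overlapped between all groups at 4583, 4164 and 4096 in knockdown cells, 4670, 4271 and 4548 in overexpressing cells and 5331, 3488 and 4050 in wild type cells.

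**Figure D3:**
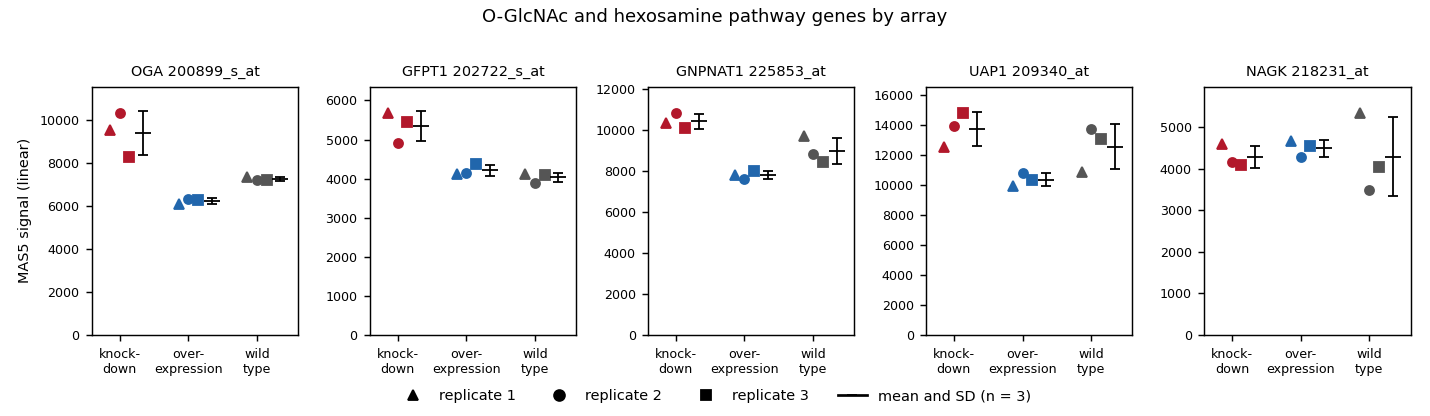
MAS5 signal (linear, axes from 0) of the 5 tested O-GlcNAc and hexosamine pathway genes in knockdown, overexpression and wild type cells, 1 symbol per array with the mean and SD of 3 arrays. OGA, GFPT1, GNPNAT1 and UAP1 are all higher on the knockdown arrays than on the overexpression arrays, and NAGK overlaps.

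PHF20, the subunit with Tudor domains and a PHD finger, had 5 tested probe sets, and they did not move together. Its promoter window, on the plus strand of GRCh38.p14 at chr20:35771765-35772064, is shown because it is the member with the largest single change. The capitals mark an E-box (CACGTG), whose first base lies 8 bases before the start.
PHF20: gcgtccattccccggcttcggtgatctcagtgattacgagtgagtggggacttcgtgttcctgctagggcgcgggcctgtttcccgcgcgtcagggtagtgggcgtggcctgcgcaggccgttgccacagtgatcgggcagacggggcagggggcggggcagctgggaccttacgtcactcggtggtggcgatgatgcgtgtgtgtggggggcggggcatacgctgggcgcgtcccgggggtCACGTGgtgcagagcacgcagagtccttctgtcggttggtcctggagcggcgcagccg

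The E-box letters were in 4 of the 13 member windows, those of PHF20, MCRS1, WDR5 and 1 of the KANSL1 windows, and in 7.26% of all 35116. They read the same on both strands. Members with an E-box in a window thus include genes with and without a called probe set.

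Probe set 235389_at of PHF20 read 527, 654 and 647 in knockdown cells, 985, 1312 and 1404 in overexpressing cells, and 1221, 1218 and 1064 in wild type cells. The knockdown arrays lay below all other arrays, and overexpression and wild type overlapped. Knockdown was at 0.521 of wild type, and its log2 signal fell by 0.94 (SE 0.17, limma adjusted p = 0.00436). Against overexpression it fell by 1.01 (SE 0.17), with a limma adjusted p of 0.00335. Both calls held under every alternative that tested the probe set, which the stricter brightness filter left out. Against wild type the difference was -1.21 between the replicate 1 arrays and -0.81 over replicates 2 and 3. Overexpression differed from wild type by 0.07 (95% interval -0.30 to 0.43).

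PHF20's other 4 tested probe sets did not share that fall. The brightest, 209422_at, read 5617, 7789 and 6852 in knockdown cells, 5011, 7852 and 7190 in overexpressing cells, and 6122, 8131 and 8304 in wild type cells. The replicate 1 array was the lowest of each group, and the log2 difference between knockdown and wild type was -0.15 (95% interval -0.55 to 0.25, limma adjusted p = 0.611). Probe set 206567_s_at read 2073, 2279 and 1862 in knockdown cells, 1990, 2117 and 1844 in overexpressing cells, and 2476, 2193 and 2244 in wild type cells. Its difference was -0.16 for knockdown (limma adjusted p = 0.394) and -0.22 for overexpression (limma adjusted p = 0.487), where the overexpression arrays lay below those of wild type. Probe sets 1569906_s_at and 209423_s_at differed from wild type by 0.22 and 0.26 in knockdown cells, with limma adjusted p of 0.551 and 0.602.

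The difference between 235389_at and its neighbours was itself measured as a log2 ratio within each array. Against each of the other 4 probe sets, that ratio was lower in knockdown than in wild type cells, with mean differences from -1.20 to -0.78 and no overlap. The probe set was singled out by its own fall, so the ratios describe that fall and are no separate test of it. The annotation used here gives all 5 the symbol PHF20 and does not say which part of the gene each one reads.

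**Figure D4:**
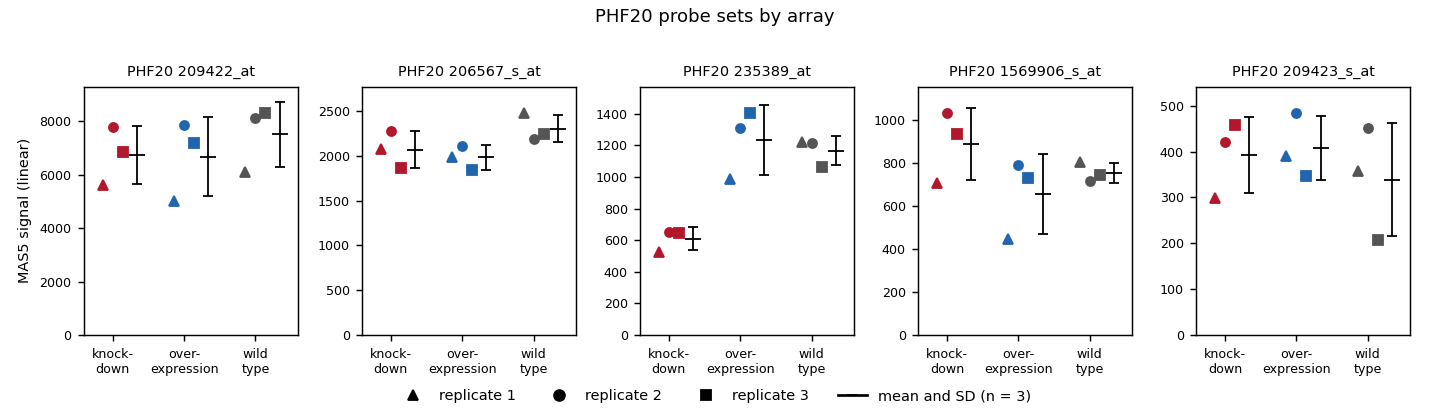
MAS5 signal (linear, axes from 0) of the 5 tested PHF20 probe sets in knockdown, overexpression and wild type cells, 1 symbol per array with the mean and SD of 3 arrays. At 235389_at the knockdown arrays, from 527 to 654, lie below all others, and at 209422_at the replicate 1 arrays lie below the other 6.

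The KANSL subunits gave 1 call, that of KANSL2 after knockdown. KANSL2 had 1 probe set, 221821_s_at. Its promoter window on the minus strand of GRCh38.p14, at chr12:48682189-48682488, held none of the 5 motifs searched (those of NRF1, YY1 and the E-box, the ETS letters CCGGAAGT and the motif shared by THAP11 and ZNF143). It is shown as the promoter of the only other member called higher after knockdown.
KANSL2: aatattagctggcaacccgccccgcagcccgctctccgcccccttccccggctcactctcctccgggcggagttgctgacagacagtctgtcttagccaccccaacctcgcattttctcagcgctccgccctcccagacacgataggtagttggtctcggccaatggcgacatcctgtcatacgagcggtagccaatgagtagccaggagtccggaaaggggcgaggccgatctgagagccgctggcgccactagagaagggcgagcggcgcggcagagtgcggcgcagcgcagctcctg

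KANSL2 read 5963, 5825 and 5506 in knockdown cells, 5706, 5521 and 5708 in overexpressing cells, and 5024, 4723 and 4445 in wild type cells. Both transfected groups lay above wild type and overlapped each other. Knockdown was 1.22-fold wild type (log2 0.29, SE 0.08, 95% interval 0.10 to 0.47), with a limma adjusted p of 0.0412. The overexpression difference, 0.26 (SE 0.08), had a limma adjusted p of 0.256, and knockdown minus overexpression was 0.03 (95% interval -0.16 to 0.21). The knockdown call was lost on leaving out any array of the comparison except wild type replicate 1 (adjusted p up to 0.131), and also without the filter, without the trend, and with only the compared groups in the fit.

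KANSL1, the scaffold, did not pass in any comparison in the fit without the block. Probe set 225117_at read 5399, 4957 and 4590 in knockdown cells, 4988, 4090 and 4529 in overexpressing cells, and 4274, 4026 and 4150 in wild type cells. Knockdown lay above wild type by 0.26 (SE 0.10), with a limma adjusted p of 0.107, or 0.0245 with the block. Probe set 243589_at read 490, 582 and 731 in knockdown cells, 290.5, 504 and 560 in overexpressing cells, and 423, 338 and 413 in wild type cells. Its difference of 0.61 (SE 0.26) had a limma adjusted p of 0.145, and over replicates 2 and 3 alone it was 0.80, with an adjusted p of 0.0379. One of the 3 KANSL1 promoter windows held the THAP11 and ZNF143 motif, as did 1.75% of all windows, and none of the 13 held the ETS letters, found in 4.14% of all.

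KANSL3, whose protein has a hydrolase-like fold, gave no call. Probe set 224318_s_at read 7582, 6094 and 6050 in knockdown cells, 7976, 5985 and 6646 in overexpressing cells, and 7504, 6227 and 6428 in wild type cells. The 3 replicate 1 arrays lay above the other 6, and no group stood apart. The log2 difference was -0.03 for knockdown (95% interval -0.32 to 0.25) and 0.03 for overexpression (-0.26 to 0.31). Probe set 220950_s_at ranged from 123 to 400 in knockdown cells, 120 to 435 in overexpressing cells and 270 to 314 in wild type cells, and its difference of -0.12 had an interval of -1.26 to 1.01. The other 2 KANSL3 probe sets, 1558652_at (85.3 to 219) and 223756_at (40.5 to 144), were too dim to test.

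KANSL3 224318_s_at and PHF20 209422_at were the only 2 of the 19 whose replicate 1 arrays did not overlap the arrays of replicates 2 and 3, the first higher and the second lower on replicate 1. That is near the 11.2% of all tested probe sets which did so. Over the 9 arrays these probe sets had a Pearson correlation of -0.89, and of -0.95 after group means were taken out, and their arrays share the split between replicate 1 and the others. Between KANSL2 and OGT 209240_at the correlation was 0.86 over the 9 arrays and 0.14 after group means were taken out.

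WDR5, MCRS1 and HCFC1 together gave 1 call. WDR5, the beta-propeller protein at the core of both NSL and the SET1 and MLL complexes, had 2 tested probe sets. Probe set 223308_s_at read 1911, 2219 and 2179 in knockdown cells, 3148, 2480 and 3027 in overexpressing cells, and 2233, 2527 and 2309 in wild type cells. Knockdown lay below both other groups, which overlapped. It fell by 0.45 (SE 0.12) relative to overexpression (limma adjusted p = 0.0306), and differed from wild type by -0.17 (limma adjusted p = 0.393). That call was lost on leaving out any knockdown array or overexpression replicate 1 or 3 (adjusted p up to 0.111), and over replicates 2 and 3 alone the difference was -0.32, with an adjusted p of 0.109. The brighter WDR5 probe set, 225170_at, read 4778, 4648 and 5094 in knockdown cells, 5786, 4950 and 5724 in overexpressing cells, and 6466, 3932 and 4662 in wild type cells. Its difference between knockdown and overexpression was -0.18 (limma adjusted p = 0.487), and wild type spanned the other groups.

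MCRS1, which NSL shares with INO80, read 4197, 3960 and 4432 in knockdown cells, 4768, 4105 and 4615 in overexpressing cells, and 3940, 4107 and 3223 in wild type cells (202556_s_at). Its differences from wild type were 0.17 for knockdown (95% interval -0.08 to 0.41) and 0.26 for overexpression (0.02 to 0.51), with limma adjusted p of 0.353 and 0.377. HCFC1 read 3176, 3389 and 3749 in knockdown cells, 3331, 2225 and 3508 in overexpressing cells, and 4159, 2850 and 2748 in wild type cells (202474_s_at). The groups overlapped throughout, and the knockdown difference from wild type was 0.10 (95% interval -0.32 to 0.53). The other HCFC1 probe sets, 202473_x_at (35.5 to 306) and 231177_at (49.5 to 192), were too dim to test. The first of these, with a mean log2 signal of 7.48, was the member just under the bound of 7.56, and KANSL3 220950_s_at, at 8.09, the member just above it.

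**Figure D5:**
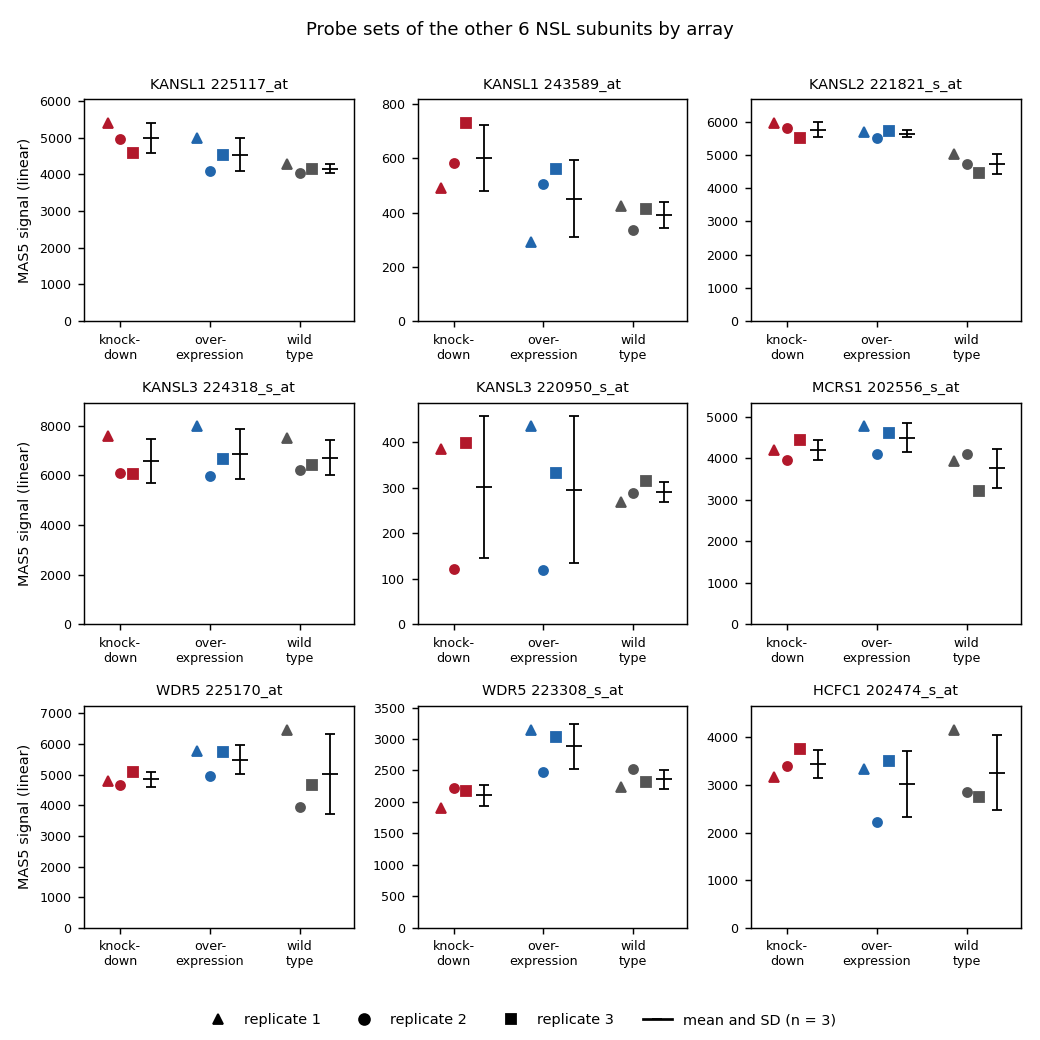
MAS5 signal (linear, axes from 0) of the 9 tested probe sets of KANSL1, KANSL2, KANSL3, MCRS1, WDR5 and HCFC1 in knockdown, overexpression and wild type cells, 1 symbol per array with the mean and SD of 3 arrays. KANSL2 is higher in both transfected groups than in wild type, WDR5 223308_s_at is lowest in knockdown cells, and KANSL3 224318_s_at separates replicate 1 from the other arrays.

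The partners of the subunits in other complexes were counted by list, with the brightest tested probe set standing for each gene. Over all lists, 10 genes passed in knockdown against wild type (22 with the block), 0 in overexpression against wild type and 14 in knockdown against overexpression (23 with the block), of 64 genes tested. The 10 are 15.6% of them, near the 15.7% of all probe sets, and the 14 are 21.9%, against 14.5% of all. With the block, 28.0% of all tested probe sets passed against wild type and 26.9% against overexpression. KAT8, the targeted gene, is among the 64, the 10 and the 14, and its fall was set by the design. In every list, the O-GlcNAc list included, 1 probe set stood for a gene. The background counts every tested probe set, so the shares are not like for like. In overexpression limma gave 0 calls in every list. At an unadjusted p under 0.05 there were 1 in MOF and MSL (KAT8 itself), 0 among the paralogs and 1 in SET1 and MLL. There were also 3 in the O-GlcNAc list, 4 among HCF-1 partners and 1 in INO80. These 10 are 15.6% of the 64 genes, against 12.3% of all tested probe sets. The smallest p of these was that of MBD5, of the HCF-1 list, at a log2 difference of -0.58 (SE 0.15, limma adjusted p = 0.141).

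MOF's other complex was represented by KAT8 and 3 MSL genes. MSL1, the MSL scaffold, read 11658, 9962 and 9924 in knockdown cells, 8012, 6349 and 6629 in overexpressing cells, and 7390, 6837 and 6698 in wild type cells. Knockdown lay above both other groups. MSL1 rose by 0.59 (SE 0.11) over wild type (limma adjusted p = 0.00488) and by 0.59 over overexpression (limma adjusted p = 0.00502), both kept on leaving out any array. The other 2 MSL genes did not pass. Of the 4 tested paralogs of NSL subunits, PHF20L1, a Tudor-domain relative of PHF20, fell by 0.37 (SE 0.10) relative to wild type (limma adjusted p = 0.0268) and by 0.43 relative to overexpression (limma adjusted p = 0.0139). Its call against wild type was lost on leaving out an array in 5 of 6 cases (adjusted p up to 0.103). Its call against overexpression was lost without knockdown replicate 3, at an adjusted p of 0.0541. The median of the list was -0.28 against wild type, and with the block 2 of the 4 passed in each comparison.

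The SET1 and MLL list, partners of WDR5, gave 1 call of 18 against wild type, where 15.7% of all tested probe sets passed, and 0 against overexpression, where 14.5% did. With the block it gave 5 and 3. PSIP1, which tethers MLL to chromatin, fell by 0.31 (SE 0.09) relative to wild type (limma adjusted p = 0.0356), a call lost without replicate 2 or 3 of either group, with an adjusted p of up to 0.124. The list's median was 0.02. At an unadjusted p under 0.05, limma gave 2 of the 18 against overexpression, and 29.2% of all tested probe sets.

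Of 21 HCF-1 partners, 20 were tested (BAP1 had no tested probe set of a single symbol). Only CREB3, a membrane-anchored transcription factor that binds HCF-1, passed against wild type. It fell by 0.35 (SE 0.11, limma adjusted p = 0.0461), a call lost whichever array was left out (adjusted p up to 0.162). Against overexpression CREB3 was lower by 0.55 (limma adjusted p = 0.0069). The cell-cycle factors E2F1 and E2F3 were lower by 0.53 (limma adjusted p = 0.0210) and 0.50 (limma adjusted p = 0.00574). Knockdown differed from wild type by -0.09 for E2F1 and -0.20 for E2F3. Overexpression differed from wild type by 0.44 for E2F1 and 0.30 for E2F3, and none of these differences from wild type passed. E2F1's call was lost without replicate 3 of either group, with an adjusted p of up to 0.0887. The list's median was -0.03 against wild type and 0.10 against overexpression, and with the block 4 and 6 of the 20 passed.

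INO80, the remodeller that shares MCRS1, had 3 of 13 genes lower and 0 higher in knockdown cells than in wild type, with a median of -0.15, where 8.89% of all tested probe sets were called lower. With the block, 6 of the 13 passed. UCHL5, a deubiquitinase of INO80 and of the proteasome, read 7988, 8069 and 7722 in knockdown cells, 11830, 12602 and 12108 in overexpressing cells, and 12736, 11308 and 10702 in wild type cells. Knockdown lay below both other groups, which overlapped. UCHL5 fell by 0.54 (SE 0.08) relative to wild type (limma adjusted p = 0.0020) and by 0.62 relative to overexpression (limma adjusted p = 0.00104), both kept on leaving out any array. NFRKB, its binding partner in INO80, fell by 0.43 (limma adjusted p = 0.0168), and RUVBL1, a ring-forming ATPase, by 0.31 (limma adjusted p = 0.0141). NFRKB's call was lost on leaving out an array in 4 of 6 cases (adjusted p up to 0.0701) and that of RUVBL1 in 2 (up to 0.0621). Against overexpression, NFRKB (-0.38), TFPT (-0.51) and UCHL5 fell and INO80B rose (0.69, limma adjusted p = 0.0353). The calls of NFRKB, TFPT and INO80B were each lost on leaving out an array in 4 or 5 of 6 cases (adjusted p up to 0.114).

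Among all 12028 genes compared, those whose log2 signal ran most closely with a called member over the 9 arrays were listed as a description, and these arrays share the group differences. For OGT 209240_at they were HSD11B1L (Pearson r = 0.976), PALM3 (0.974) and PTCHD1 (0.974). For PHF20 235389_at they were CEP128 (0.988), COL5A2 (0.982) and MAGI2-AS3 (0.980). For KANSL2 they were UGCG (0.971), BTBD6 (0.969) and LUC7L2 (0.956), and for WDR5 223308_s_at MON1A (0.968), SCAMP5 (0.940) and NQO1 (0.931).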

How the data were processed

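Total RNA of 9 HEK293 samples was labelled with biotin and hybridized to oligonucleotide arrays, 1 per sample, per the labels' protocols. The authors deposited a linear intensity for each probe set. MAS5 is named in the submitters' processing notes, with its version not given in the sources used here. The 2% trimmed mean was 1500.2 on every array, so these values cannot show whether a cell held more or less RNA in all. Array image files and detection calls were not used here. The number of arrays limits the precision.

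Samples were grouped by their titles. Signals were transformed to log2(signal + 1), and fold changes are on that scale, which understates those of dim probe sets. Without 62 control probe sets, the 27307 whose mean over 9 arrays reached the median (7.564, a signal of about 188) were tested with limma 3.58.1 in R 4.3.3 (lmFit, eBayes with a trend) in 1 fit of the 9 samples (6 residual degrees of freedom), two-sided, adjusted by Benjamini-Hochberg over all probe sets tested, at 0.05. Correlations within a group ran from 0.973 to 0.985 and 0 array pairs were identical. The fit was tested on simulated data.

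Gene names came from the platform's annotation table, in which 41097 had 1 symbol, 1801 several and 11777 none. No symbol needed an update through its Entrez ID. Promoter windows came from RefSeq. The genes named were all probe sets of the 8 members, KAT8, up to 4 genes per list and comparison past the threshold or else those of smallest p, and the 3 genes most like each called member. The prose leaves out some of these. The members and lists were chosen with earlier results of these data known.

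Replicate numbers were taken as pairing arrays where every same-numbered pair of deviations correlated above 0.1. This held for knockdown against wild type and for knockdown against overexpression, but not for overexpression against wild type (0.08 to 0.45). The pairing comes from the data, since the labels do not state it. Wild type replicate 3 and knockdown replicate 2 correlated at 0.18, above the same-numbered pairs 2 (0.144) and 3 (0.137) of these groups. The alternatives were quantile normalization, a pseudocount of 16, no filter, a filter at the 75th percentile, eBayes without trend, only the compared groups, a replicate block, a term for replicate 1, replicates 2 and 3 alone, and leaving out each array.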

Additional observations from a re-analysis of the deposited data

How the results depend on the processing

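The call of OGT 209240_at against wild type held under every alternative run. The calls of OGT 229787_s_at and PHF20 235389_at against wild type held under every alternative that tested them. So did that of PHF20 235389_at against overexpression. The stricter brightness filter left out OGT 229787_s_at and PHF20 235389_at, so their calls were not tested there. The count of 5 NSL calls in knockdown against wild type became 3 without the trend and 8 with the replicate block or the replicate 1 term, and 3 to 5 on leaving out an array (3 without wild type or knockdown replicate 2 or 3). The 3 calls against overexpression became 1 with only the compared groups, 5 with the block or the term, and 1 to 3 on leaving out an array (1 without overexpression replicate 1 or knockdown replicate 2 or 3). In overexpression against wild type the 0 calls became 1 with the block or the term, OGT 209240_at (adjusted p 0.0256 and 0.0224), and stayed 0 on leaving out any array. Among the NSL probe sets the block changed no call other than those given beside their values and this one. The cause of these changes was not tested, except that leaving out arrays leaves fewer samples.

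The genes of the other lists include KAT8. Their 10 calls of knockdown against wild type became 22 with the block, 21 with the term and 17 over replicates 2 and 3. On leaving out an array they became 4 to 10 (4 without replicate 2 of either group, 5 without wild type replicate 3 and 6 without knockdown replicate 3). Against overexpression the 14 became 23 with the block, 22 with the term and 7 to 13 on leaving out an array (8 without overexpression replicate 3, 7 without knockdown replicate 3). In overexpression against wild type the 0 became 4 with either. Over all probe sets the block raised the calls to 7637 for knockdown against wild type, 1022 for overexpression against wild type and 7334 for knockdown against overexpression, against 4289, 130 and 3963 without it. KAT8's 0.51 in overexpressing cells passed with the block and the term (0.51, adjusted p 0.0381 and 0.0478) and ran from 0.42 to 0.61 on leaving out an array. Its change in knockdown cells ran from -2.80 to -2.45 against wild type and from -3.31 to -2.96 against overexpression.

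No result that had passed changed sign. Over replicates 2 and 3 alone, values that had not passed turned for WDR5 225170_at (0.18) in knockdown against wild type, KANSL3 224318_s_at (-0.0046) and PHF20 1569906_s_at (0.061) in overexpression against wild type, and PHF20 209422_at (-0.041) and 209423_s_at (0.10) in knockdown against overexpression. On leaving out an array, values that had not passed crossed 0. In knockdown against wild type HCFC1 202474_s_at ran from -0.0054 to 0.293, KANSL3 220950_s_at from -0.415 to 0.432, KANSL3 224318_s_at from -0.141 to 0.047, PHF20 209423_s_at from -0.059 to 0.504 and WDR5 225170_at from -0.183 to 0.176. In overexpression against wild type HCFC1 202474_s_at ran from -0.230 to 0.098, KANSL1 243589_at from -0.024 to 0.449, KANSL3 220950_s_at from -0.536 to 0.392, KANSL3 224318_s_at from -0.087 to 0.120, OGT 207564_x_at from -0.062 to 0.141, OGT 212307_s_at from -0.069 to 0.044, PHF20 1569906_s_at from -0.400 to 0.012, PHF20 209422_at from -0.324 to 0.012, PHF20 235389_at from -0.036 to 0.220 and WDR5 225170_at from -0.0046 to 0.354. In knockdown against overexpression KANSL3 220950_s_at ran from -0.515 to 0.595, KANSL3 224318_s_at from -0.168 to 0.052, PHF20 206567_s_at from -0.011 to 0.134, PHF20 209422_at from -0.167 to 0.157 and PHF20 209423_s_at from -0.185 to 0.123.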
